A study of Homo sapiens with 3 samples.

Results

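Endothelial cells, mesenchymal cells and hepatocytes each carry a few microRNAs (miRNAs) at levels that most other cell types do not reach, and 6 such markers were followed through 3 small RNA libraries of CAL-27, a widely used cell line grown from a human tongue carcinoma of squamous type. The markers were hsa-miR-126-3p and hsa-miR-126-5p for endothelium, hsa-miR-143-3p, hsa-miR-199a-5p and hsa-miR-199b-5p for mesenchymal cells including smooth muscle and fibroblasts, and hsa-miR-122-5p for liver (the human prefix hsa is left out from here on). They were chosen by name as markers of lineages foreign to a squamous line, with earlier results of these data known. All 6 were found among the 1149 mature human miRNAs listed. CC had no irradiation. For the library labelled Mock, the series describes X-rays at 2 Gy on a single occasion. RR was the radioresistant group, exposed daily to 2 Gy for 2 cycles of 5 days with 2 weeks of recovery after each cycle. All groups derive from the same parental line through single-cell cloning, and the number of clones behind each library is not given. The labels of the irradiated libraries are in doubt, since a tag with a dose stands on RR and a tag of irradiation with no dose on Mock, and directions below follow the deposited names.

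A mature miRNA is cut from a stem-loop precursor, the hairpin. Usually the strand of 1 arm is loaded into an Argonaute protein and kept while the other is lost, and bases 2 to 8 of the loaded strand, the seed, pair with target mRNAs. miR-126 lies in EGFL7, an endothelial gene, and its 3p strand represses SPRED1 and PIK3R2, which hold back signalling from the VEGF receptor. miR-143 is made from a locus shared with miR-145 that is active in smooth muscle and fibroblasts and largely silent in epithelium. miR-199a and miR-199b come from strands antisense to dynamin genes, and miR-199a with miR-214 is transcribed in mesenchyme under TWIST1. miR-122 dominates the miRNA pool of hepatocytes, where it supports cholesterol and lipid metabolism.

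The mature sequences are shown because the 6 markers fall into 5 seed groups and because the members of the miR-199 group are close to identical, which bears on how their reads can be told apart. They are given 5′ to 3′ as the deposited table lists them, with T for U and the seed in capitals.
miR-126-3p: tCGTACCGtgagtaataatgcg
miR-126-5p: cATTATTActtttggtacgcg
miR-143-3p: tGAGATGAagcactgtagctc
miR-199a-5p: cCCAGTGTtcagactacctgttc
miR-199b-5p: cCCAGTGTttagactatctgttc
miR-122-5p: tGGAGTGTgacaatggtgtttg

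miR-199a-5p and miR-199b-5p shared their seed and differed at 2 of 23 positions, C10T and C17T from miR-199a-5p to miR-199b-5p, counted from the 5′ end. No other listed miRNA had the seed of any of the 6. Within 3 mismatches over 16 or more bases, no listed miRNA matched miR-126-3p, miR-126-5p or miR-143-3p on either strand. The only such match to miR-122-5p was miR-122b-3p, whose listed sequence is its reverse complement over 21 bases.
miR-122b-3p: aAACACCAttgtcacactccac

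How reads that fit several miRNAs were assigned, and whether strand was used, was not stated in the labels or headers. Of the 6 sequences, 5 were found in RefSeq's miRNA table and were identical to it. RefSeq's hairpins (GRCh38.p14) show where paired strands come from, with the mature strands of both arms in capitals, here for the markers whose other arm or near copy was also measured.
MIR126: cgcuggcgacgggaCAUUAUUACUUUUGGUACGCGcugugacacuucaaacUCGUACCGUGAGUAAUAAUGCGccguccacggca
MIR143: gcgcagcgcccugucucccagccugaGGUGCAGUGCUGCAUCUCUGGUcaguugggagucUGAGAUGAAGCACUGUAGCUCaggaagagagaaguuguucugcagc
MIR199A2: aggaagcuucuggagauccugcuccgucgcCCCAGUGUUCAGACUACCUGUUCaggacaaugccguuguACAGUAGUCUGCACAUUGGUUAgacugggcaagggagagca
MIR199B: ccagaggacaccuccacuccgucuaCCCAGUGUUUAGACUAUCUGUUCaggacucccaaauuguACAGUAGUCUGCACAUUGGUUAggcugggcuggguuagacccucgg

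On GRCh38 the MIR126 hairpin lies at chr9:136670602-136670686 on the plus strand, within an intron of EGFL7 on the same strand, by GENCODE release 29. MIR143 lies at chr5:149428918-149429023, plus strand, overlapping an exon of the long non-coding RNA CARMN, and MIR145 follows 1622 bases downstream. MIR199A2 at chr1:172144535-172144644 and MIR199B at chr9:128244721-128244830, both minus strand, lie antisense within introns of DNM3 and DNM1. MIR199A1, a further source of miR-199a-5p, lies antisense within an intron of DNM2 at chr19:10817426-10817496. MIR122 lies at chr18:58451074-58451158, plus strand, overlapping an exon of the non-coding gene MIR122HG.

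Each group had 1 library. Differences therefore carry no check by replicates, and p-values are left out. Values are reads per 1000000 reads of a library's total (rpm), and the whole reads behind them could be recovered. Totals were between 10473400 and 10769990 reads, and the listed miRNAs took 16.3% of the CC total, 23.2% of the Mock total and 20.5% of the RR total. The floor of detection was set at 3 reads, equal to 0.279 rpm for CC, 0.282 for Mock and 0.286 for RR. Intervals are exact 95% Poisson intervals for levels and exact Clopper-Pearson intervals for ratios. They cover counting error only, since PCR copies are not independent molecules, and they compare libraries, not conditions. Squamous epithelial miRNAs, markers of the line's own type, were above the floor in all 3 libraries, 9 of 9. Their summed level was 30018 to 45512 rpm. Leading them were miR-205-5p (25945 rpm in CC, 14174 in Mock, 29651 in RR), miR-200c-3p (11739 to 14184 rpm) and miR-200b-3p (976 to 1420 rpm). Lower on that list, miR-203a-3p, miR-141-3p and miR-944 lay below the marker miR-126-3p in every library, and miR-429 in CC and RR.

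The 6 markers together were a trace of the miRNA pool. They took 708 reads of CC, 836 of Mock and 958 of RR, or 0.0404% (0.0375% to 0.0435%), 0.0339% (0.0317% to 0.0363%) and 0.0446% (0.0418% to 0.0475%) of the miRNA reads. miR-126-3p alone made up 81.9% of these marker reads in CC, against 83.7% for Mock and 88.0% for RR. The other 5 markers together gave 11.9 (CC), 12.8 (Mock) and 11.0 rpm (RR), with ratios whose intervals all held 1: 1.08-fold for Mock over CC (0.839 to 1.38), 0.924 for RR over CC (0.712 to 1.20) and 0.858 for RR over Mock (0.664 to 1.11). This held for rpm as deposited. Relative to all miRNA reads, Mock over CC turned to 0.755 (0.589 to 0.969) and RR over CC was 0.732 (0.564 to 0.950), both with intervals below 1. The RR over CC interval was also below 1 after median-ratio scaling (0.708, 0.546 to 0.918) and with the 10 most abundant miRNAs kept out (0.741, 0.571 to 0.961).

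**Figure D1:**
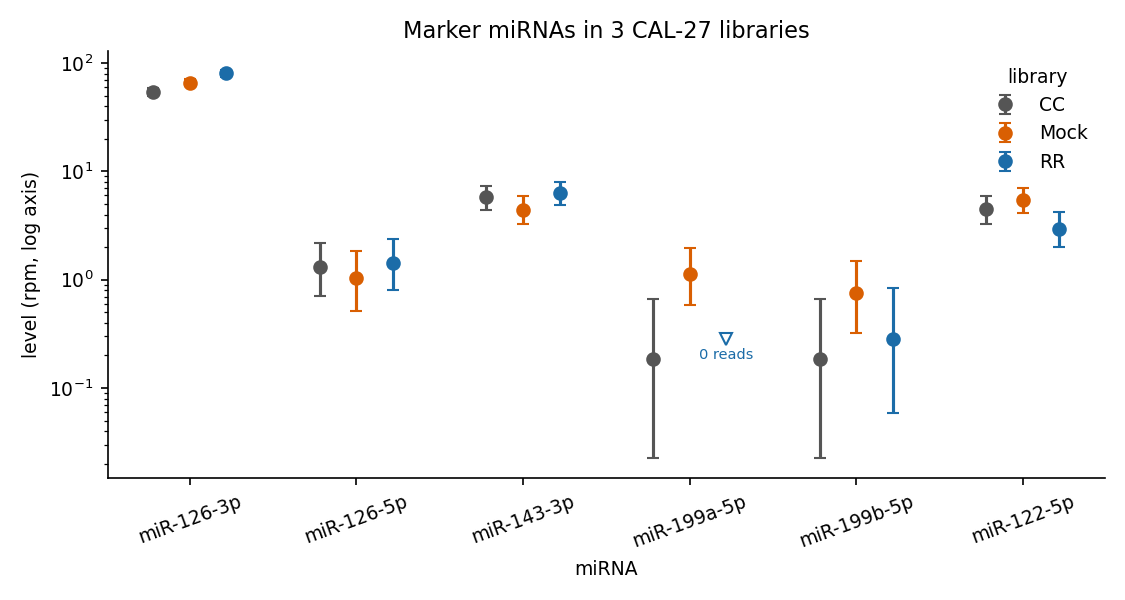
Level in rpm (log axis) of each marker miRNA in the CC, Mock and RR libraries, 1 library per group, with points for the value and bars for the exact 95% Poisson interval. The open triangle marks the floor of 3 reads for miR-199a-5p in RR, which had 0 reads. miR-126-3p lies between 53.9 and 80.5 rpm and every other marker below 7 rpm.

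miR-126-3p, the guide strand that defines endothelium, was the marker with the highest level and the marker counted most precisely. It stood at 53.9 rpm in CC (49.6 to 58.4, 580 reads), 65.8 rpm in Mock (61.0 to 70.9, 700 reads) and 80.5 rpm in RR (75.1 to 86.1, 843 reads). RR was thus highest and CC lowest, and the intervals of the 3 libraries did not overlap. These levels ranked 107th, 103rd and 102nd of the 1149 listed miRNAs, and miR-205-5p, typical of stratified epithelium, exceeded miR-126-3p by 482-fold (CC), 215-fold (Mock) and 368-fold (RR). RR exceeded CC by 1.49-fold (1.34 to 1.66). After adding 0.1 rpm the log2 ratio was 0.58, and 76.9% of the 390 miRNAs whose mean reached 1 rpm lay below it. RR over Mock was 1.22-fold (1.10 to 1.35). Both kept their direction, with intervals above 1, under every scaling tried, at 1.15 to 1.51 for RR over CC and 1.16 to 1.38 for RR over Mock. Mock over CC was 1.22-fold (1.09 to 1.37) as deposited, the same as the median of all 390 miRNAs (1.22-fold). Its direction turned with the scaling: 0.991 (0.886 to 1.11) after median-ratio scaling, 0.959 (0.858 to 1.07) when the 10 most abundant miRNAs were kept out of the scaling, and 0.858 (0.767 to 0.959) when each miRNA was taken relative to all miRNA reads. With a trend with GC content removed it was 1.11 (0.996 to 1.25).

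miR-126-5p, the strand of the other arm, was close to the floor in every library. It stood at 1.30 rpm in CC (0.711 to 2.18, 14 reads), 1.03 rpm in Mock (0.516 to 1.85, 11 reads) and 1.43 rpm in RR (0.802 to 2.36, 15 reads). The 3 intervals overlapped, and so did the intervals of all ratios with 1: 0.796 for Mock over CC (0.327 to 1.89), 1.10 for RR over CC (0.496 to 2.46) and 1.38 for RR over Mock (0.594 to 3.33). With 14 reads in CC, a difference under about 2.03-fold upward or 3.46-fold downward in Mock could not have been told from counting error. The 3p strand outnumbered the 5p strand 41.4 to 1 in CC (24.5 to 76.3), 63.6 to 1 in Mock (35.3 to 128) and 56.2 to 1 in RR (33.9 to 101). These intervals overlap as well, so a difference in strand choice between the libraries was not detectable at this depth.

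miR-143-3p, which represses ELK1 and other drivers of the synthetic smooth muscle state, was the next most abundant marker in CC and RR. It stood at 5.76 rpm in CC (4.41 to 7.38, 62 reads), 4.42 rpm in Mock (3.25 to 5.88, 47 reads) and 6.30 rpm in RR (4.87 to 8.02, 66 reads). Mock was lowest, within overlapping intervals. Mock over CC was 0.768 (0.514 to 1.14), RR over CC 1.09 (0.762 to 1.57) and RR over Mock 1.43 (0.966 to 2.12). The RR over Mock interval lay above 1 relative to all miRNA reads (1.61, 1.09 to 2.39) and with a trend with GC content removed (interval 1.02 to 2.23), and held 1 under the other scalings. The Mock over CC interval fell below 1 where the libraries were rescaled, at 0.622 (0.417 to 0.924) after median-ratio scaling, 0.603 (0.403 to 0.895) with the 10 most abundant miRNAs kept out and 0.539 (0.361 to 0.800) relative to all miRNA reads, but not with the GC trend removed (0.731, 0.490 to 1.09). RR over CC turned below 1 under the 3 rescalings, with intervals that held 1.

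The partners of miR-143-3p at its locus were at or near the floor. miR-143-5p, from the other arm, had 1 read in each of CC and RR and 0 in Mock, with an interval of 0 to 0.347 rpm for the 0. miR-145-5p, a guide strand that drives smooth muscle differentiation and represses KLF4, had 5, 1 and 2 reads, and miR-145-3p had 0, 1 and 0. Reads of miR-143-3p thus outnumbered those of miR-145-5p 12.4 to 1 in CC (5.04 to 39.5), 47.0 to 1 in Mock (8.03 to 1895) and 33.0 to 1 in RR (8.78 to 278). Ligation differs in efficiency between sequences, so ratios between miRNAs are ratios of reads rather than of molecules.

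miR-122-5p, the hepatocyte marker, was low throughout and lowest in RR. It stood at 4.46 rpm in CC (3.29 to 5.91, 48 reads), 5.45 rpm in Mock (4.14 to 7.05, 58 reads) and 2.96 rpm in RR (2.01 to 4.20, 31 reads). The interval of RR overlapped narrowly with that of Mock and widely with that of CC. RR was 1.84-fold lower than Mock (1.17 to 2.95), and this interval excluded 1 under all scalings and with the GC trend removed, where the fold ran from 1.63 to 1.95. RR over CC was 0.664 (0.409 to 1.06), an interval that held 1 as deposited. It did not hold 1 after median-ratio scaling (0.509, 0.313 to 0.816), with the 10 most abundant miRNAs kept out (0.533, 0.328 to 0.854) or relative to all miRNA reads (0.526, 0.324 to 0.844). Mock over CC was 1.22-fold (0.821 to 1.83), and below 1 under the 3 rescalings, always with an interval that held 1. Of 101 miRNAs whose mean level was within 2-fold of that of miR-122-5p, a range chosen after the values were seen, 3 had a lower log2 ratio of RR over CC. For RR over Mock 14 of the 101 were lower, and for Mock over CC 46. The reverse-complement sequence miR-122b-3p had 3 reads in Mock and 0 elsewhere, far fewer than miR-122-5p. The other arm of the hairpin, miR-122-3p, had no entry among the listed miRNAs.

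miR-199a-5p and miR-199b-5p, which repress CAV1 and DDR1 among others, were at or under the floor in CC and RR and above it in Mock. miR-199a-5p had 2 reads in CC (0.186 rpm, 0.0225 to 0.671), 12 in Mock (1.13 rpm, 0.583 to 1.97) and 0 in RR (interval 0 to 0.352 rpm, floor of 3 reads 0.286 rpm). miR-199b-5p had 2 reads in CC (0.186 rpm, 0.0225 to 0.671), 8 in Mock (0.752 rpm, 0.325 to 1.48) and 3 in RR (0.286 rpm, 0.0591 to 0.837). Mock was the highest library for both. Mock over CC was 6.08-fold for miR-199a-5p (1.35 to 55.9) and 4.05-fold for miR-199b-5p (0.809 to 39.2), so that only the first interval excluded 1, and relative to all miRNA reads it did not (4.27, 0.950 to 39.2). For miR-199a-5p the exact interval of RR over Mock ran from 0 to 0.365, so that counting error allows a drop as small as 2.74-fold. With RR set at its floor of 3 reads and no error on the Mock count, RR was at least 3.94-fold lower. For miR-199b-5p RR over Mock was 0.381 (0.0651 to 1.59). No fold is given for RR over CC, where both libraries were at or under the floor.

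Since both miR-199 markers share a seed and differ at 2 bases, their reads were also summed, giving 4 reads for CC, 20 for Mock and 3 in the RR library. The sum was 5.06-fold higher in Mock than in CC (1.70 to 20.4) and 6.57-fold lower in RR than in Mock (1.95 to 34.5). The 3p strand, identical in miR-199a and miR-199b and listed as a single entry, had 20 reads (1.86 rpm) in CC, 34 (3.20 rpm) in Mock and 27 (2.58 rpm) in RR, with a Mock over CC ratio of 1.72 (0.963 to 3.16). The 5p strands made up 4 of the 24 miR-199 reads of CC (16.7%, 4.74% to 37.4%), 20 of 54 in Mock (37.0%, 24.3% to 51.3%) and 3 of 30 in RR (interval 2.11% to 26.5%). With both arms summed, the ratio to CC was 2.28 for Mock (1.38 to 3.85) and 1.29 for RR (0.726 to 2.30). Relative to all miRNA reads the Mock ratio was 1.60, with an interval that held 1 (0.972 to 2.71). After median-ratio scaling the RR ratio was 0.985 (0.557 to 1.76). The sum of both 5p strands kept intervals that excluded 1 under the 3 rescalings, at 3.55-fold to 4.11-fold for Mock over CC and 5.81-fold to 6.95-fold lower for RR than Mock. Of the neighbouring miR-214 hairpin, miR-214-5p had 3 reads in Mock and 0 in the other libraries, and miR-3120-3p, from the strand opposite miR-214, had 6, 7 and 7. Their other arms, miR-214-3p and miR-3120-5p, had no entry among the listed miRNAs.

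**Figure D2:**
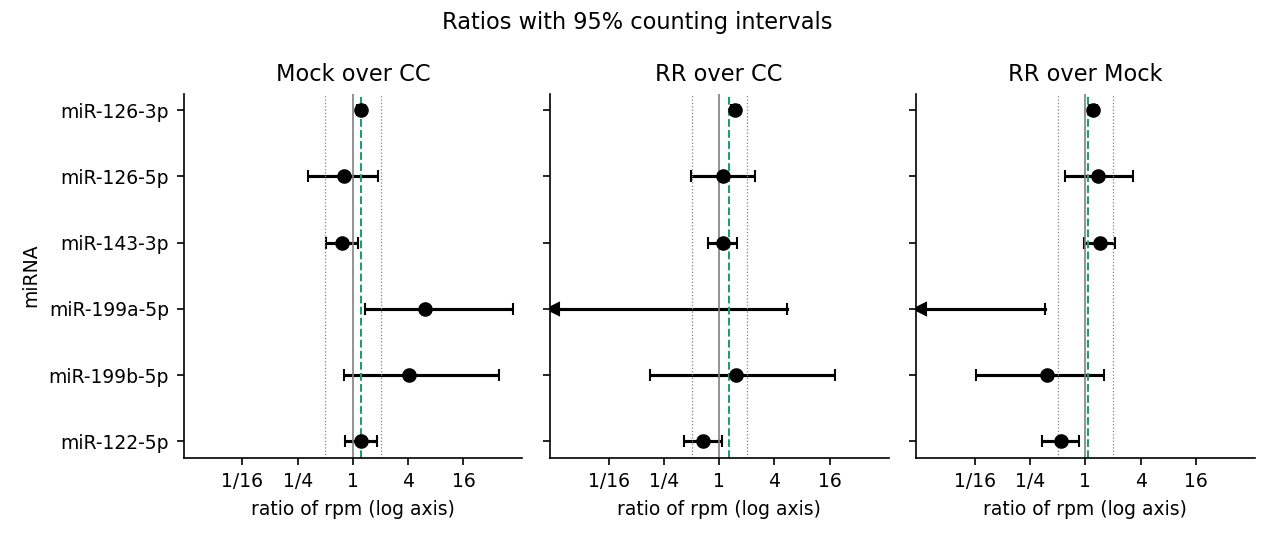
Ratio of rpm between libraries (log axis) for each marker miRNA, with exact 95% counting intervals, in 3 panels by comparison. Solid lines mark 1, dotted lines 2-fold, and the dashed green line the median ratio of 390 miRNAs whose mean reached 1 rpm, while an arrow means that the first library had 0 reads. Only the miR-126-3p, miR-199a-5p and miR-122-5p rows hold an interval that excludes 1. Such intervals were found for 54.6% to 66.7% of the 390 miRNAs, depending on the comparison.

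The order of the markers within a library was the same at the top in all 3: miR-126-3p exceeded miR-143-3p 9.35-fold in reads in CC (7.19 to 12.4), 14.9-fold in Mock (11.1 to 20.5) and 12.8-fold in RR (9.93 to 16.7). miR-143-3p and miR-122-5p came next and could not be told apart in CC (ratio of reads 1.29, 0.872 to 1.92) or Mock (0.810, 0.540 to 1.21), while in RR miR-143-3p was 2.13-fold higher (1.37 to 3.38). miR-126-5p lay below both in every library. In Mock miR-143-3p exceeded it 4.27-fold in reads (2.18 to 9.14) and miR-122-5p 5.27-fold (2.74 to 11.1). In that library miR-126-5p did not differ beyond counting error from miR-199a-5p (0.917, 0.366 to 2.27) or miR-199b-5p (1.38, 0.504 to 3.94). The miR-199 markers were last in CC and RR, at 2 reads each and at 0 and 3 reads.

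Counts past a fixed size put the markers beside all miRNAs. A miRNA was counted when its mean over the 3 libraries was 1 rpm or more, its log2 ratio was 1 or more in size (2-fold) and its interval excluded 1. Of the 6 markers 4 passed the limit on the mean, miR-126-3p, miR-126-5p, miR-143-3p and miR-122-5p, and the miR-199 markers, with means of 0.438 and 0.408 rpm, did not. For Mock over CC 0 of these 4 were counted, beside 22.1% of the 390 miRNAs that passed, 64 higher and 22 lower. For RR over CC 0 of 4 were counted, beside 5.13%, 17 higher and 3 lower, and for RR over Mock 0 of 4, beside 18.5%, 45 higher and 27 lower. Without the limit on the mean, miR-199a-5p was counted as higher in Mock than in CC, where 7.48% of all 1149 miRNAs were counted as higher, and as lower in RR than in Mock, where 3.57% were counted as lower. At a threshold of 1.5-fold, miR-122-5p was counted as lower in RR than in Mock, beside 15.6% of the 390. Intervals that excluded 1, at any size of ratio, were common in the rpm as deposited. For Mock over CC 1 of the 4 markers had one, beside 66.7% of the 390. For RR over CC it was 1 of 4 beside 54.6%, and for RR over Mock 2 of 4 beside 63.8%.

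The median log2 ratio of the 4 markers was -0.01 for Mock over CC, 0.13 for RR over CC and 0.36 for RR over Mock, beside 0.29, 0.36 and 0.11 for all 390 miRNAs. With so few members the median rests on the middle pair. The splits between higher and lower miRNAs depended on the scale. For Mock over CC they were 27 and 44 with median-ratio scaling, 26 and 50 with the 10 most abundant miRNAs kept out, and 20 and 68 relative to all miRNA reads. For RR over CC the same scalings gave 3 and 9, 4 and 8, and 3 and 8. For RR over Mock median-ratio scaling gave 33 and 30, values relative to all miRNA reads 61 and 20, and removal of the GC trend 24 and 21. Median-ratio scaling moved the median of all 390 to -0.02, -0.02 and 0.03 in the 3 comparisons.

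**Figure D3:**
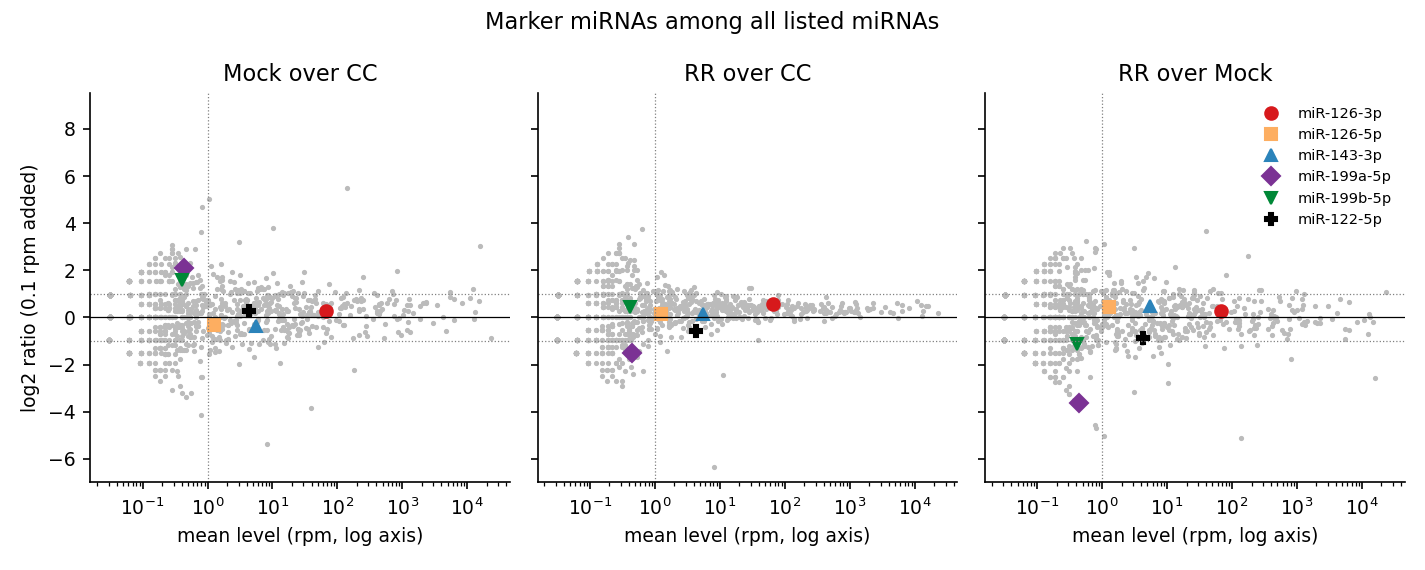
Log2 ratio after adding 0.1 rpm against the mean level over the 3 libraries (rpm, log axis), in 3 panels by comparison, with grey points for all listed miRNAs and coloured symbols for the markers. Dotted lines mark 2-fold and a mean of 1 rpm. The miR-199 markers, at means of 0.438 and 0.408 rpm, lie where grey points spread widely, and miR-126-3p, miR-126-5p, miR-143-3p and miR-122-5p lie inside the 2-fold lines in every panel.

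The likeness of pattern was measured as the distance between pairs of log2 ratios, Mock over CC and RR over CC, over 3 libraries, among 207 other miRNAs whose mean reached 10 rpm. It is a description, since 3 libraries allow many miRNAs to lie close. The distances also leave out counting error, which is wide for members with few reads. For miR-126-5p the Mock over CC ratio had an interval of 0.327 to 1.89, and for miR-122-5p of 0.821 to 1.83. Nearest to miR-126-3p were miR-331-5p (distance 0.0065), miR-151a-3p (0.064) and miR-25-5p (0.085). Nearest to miR-143-3p were miR-425-5p (0.057), miR-328-3p (0.069) and miR-1303 (0.093), and the same 3 miRNAs were nearest to miR-126-5p. For miR-122-5p the nearest of these candidates were farther away, with miR-15b-3p at 0.40, miR-3529-3p at 0.41 and miR-181a-5p at 0.42.

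Markers of other lineages were read in the same way, because as deposited the library labelled Mock was highest for miR-199a-5p, miR-199b-5p and miR-122-5p. For miR-122-5p Mock over CC was 1.22-fold (0.821 to 1.83), the same as the median of all 390 miRNAs (1.22-fold). Under the 3 rescalings this ratio was below 1. The blood list held 10 miRNAs, 8 of them listed, and summed to 9.56 (CC), 411 (Mock) and 12.5 rpm (RR). Of these 8, CC had 2 above the floor, Mock 7 and RR 2, and all 8 were highest in Mock. miR-486-5p, known from red cells and muscle, gave most of that sum, at 8.73, 398 and 11.5 rpm. The erythroid miR-451a stood at 0.743, 7.71 and 0.764 rpm, and the erythroid miR-144-3p had 26 reads in Mock and 0 elsewhere. The leukocyte strands miR-142-5p and miR-142-3p had 0 and 1 reads in CC, 5 and 8 in Mock, and 0 and 0 in RR. miR-223-3p and miR-223-5p, also on the blood list, had no entry among the listed miRNAs. Of all 1149 miRNAs, 37.9% were highest in Mock. The part of blood-derived RNA in the miR-199 or miR-122-5p values was not tested.

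The mesenchymal and smooth muscle list, which contains 3 of the markers, had 8 listed entries for its 10 names and summed to 8.54 (CC), 9.97 (Mock) and 9.45 rpm (RR). Above the floor were 3, 4 and 2 of the 8 entries, and 5 were highest in Mock, beside 37.9% of all 1149 miRNAs. miR-143-3p, lowest in Mock, gave the largest share of each sum. The endothelial list was both strands of miR-126, at 55.2, 66.9 and 81.9 rpm, and the hepatic list was miR-122-5p alone among listed entries. Striated muscle miRNAs (5 of 7 listed) summed to 341, 346 and 409 rpm, nearly all of it miR-1-3p at 338, 319 and 404 rpm, while miR-206 stood at 1.76, 25.5 and 3.63 rpm and miR-133a-3p at 1.02, 0.658 and 0.859 rpm. Neural miRNAs (4 of 7 listed) summed to 581, 807 and 713 rpm, led by miR-128-3p, miR-9-5p and miR-9-3p. The islet and pituitary pair summed to 4325, 7910 and 4274 rpm, of which miR-375-3p gave 25.0, 17.9 and 31.4 rpm and miR-7-5p the rest. In bulk RNA, fewer cells of a type and less RNA per cell cannot be told apart.

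**Figure D4:**
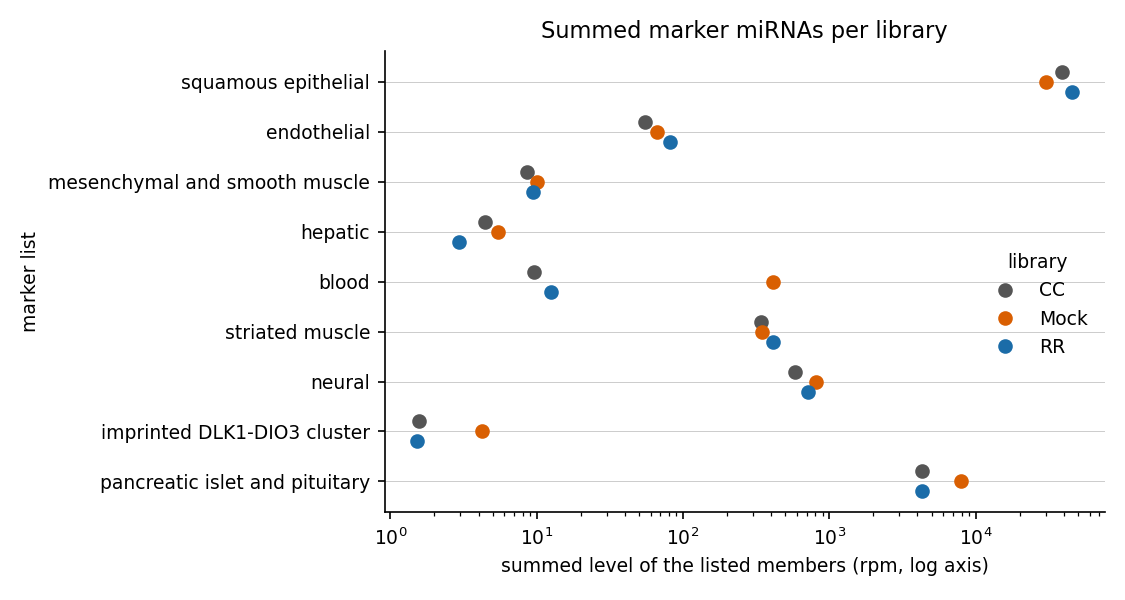
Summed level of each list of marker miRNAs (rpm, log axis) in the CC, Mock and RR libraries, with 1 point per library. The squamous list lies at 30018 rpm or above in every library, the endothelial list between 55.2 and 81.9 rpm, and the blood list at 411 rpm in Mock against 9.56 in CC and 12.5 in RR.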

How the data were processed

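The labels' protocols describe ligation-based small RNA libraries (New England Biolabs kit) from TRIzol RNA, sequenced on an Illumina NovaSeq. Per the submitters' processing notes, Bowtie and GRCh38 were used, in roles they do not state; for trimming and the miRNA reference, the sources used here say nothing. The deposited values, which the authors call TPM, behave as RPM: 100% of each column's values came out as whole reads (tolerance 0.01 read) once divided by the column's smallest value, and library totals follow from that step.

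Columns were mapped to libraries through the treatment tag. With 1 library per group no count model was fitted. Log2 ratios used a pseudocount of 0.1 rpm. The 6 members and the 9 marker lists were chosen with earlier results of these data known. All members are named, with their other arms, cluster partners and seed mates, the 3 nearest miRNAs for members with 10 or more reads in every library, and the 3 highest of each list. Others named, chosen after their values were seen, were miR-122b-3p, both arms of miR-142, miR-134-5p and, as a comparison of level, miR-205-5p. Both arms of miR-223 are named because they had no entry. The same holds for miR-203a-3p, miR-141-3p, miR-944 and miR-429 of the squamous list. Alternatives covered pseudocount, filter, threshold, interval, scaling and GC trend. The rescaled sums over members were chosen after seeing the data. The calling rule was checked on simulated Poisson counts, the error model behind the intervals. Such counts hold no variation between replicate libraries, so the check does not cover it. Tools were Python 3.11.15 with scipy 1.17.1, pandas 2.3.3, numpy 2.4.6 and matplotlib 3.10.9.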

Additional observations from a re-analysis of the deposited data

How the results depend on the processing

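Under 11 alternatives the number of members counted as past the threshold stayed at 0 in the 3 comparisons, apart from 3 values. The larger pseudocounts, the higher limit on the mean and the 4-fold threshold could only keep a count of 0 at 0. They therefore say nothing on stability. With no limit on the mean, miR-199a-5p made it 1 in Mock over CC and 1 in RR over Mock, and at a 1.5-fold threshold miR-122-5p made it 1 in RR over Mock. Of 108 member log2 ratios recomputed with another pseudocount, scaling or GC trend, 98 stayed inside the counting interval of the deposited ratio and 10 did not. Outside were miR-126-3p in 3 values of Mock over CC, 3 of RR over CC and 1 of RR over Mock. The rest were miR-199a-5p, in 1 value of Mock over CC and 2 of RR over Mock. The counting interval is wide for members with few reads, so staying inside it shows little there. For miR-199a-5p a pseudocount of 10 rpm took Mock over CC from 2.10 to 0.13, which follows from its low level.

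Counts over all miRNAs moved more. For Mock over CC, 86 were counted in the form reported, 57 and 17 with a pseudocount of 1 and 10 rpm, 35 when the mean had to reach 10 rpm, and 173 and 10 at 1.5-fold and 4-fold. For RR over CC 20 became 7, 2, 3, 73 and 2, in the same order, 46 without a limit on the mean, and 12, 12 and 11 with median-ratio scaling, with the 10 most abundant kept out and relative to all miRNA reads. For RR over Mock 72 became 50, 16, 28, 146 and 10, and 45 without the GC trend. No paired analysis was possible because each group has 1 library. Depth limits the miR-199 markers most: beside 2 reads in CC, the smallest level in Mock with an interval above 1 is 5.06-fold higher, and no lower level has an interval below 1. For miR-126-3p the same limits are 1.12-fold and 1.13-fold.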

Other observations

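miRNAs of the imprinted DLK1-DIO3 locus, which is active in mesenchymal and neural tissue and usually silent in epithelial lines, had counts in the same range as the miR-199 markers. Of the 10 names in that list 8 were listed, with 17 (CC), 45 (Mock) and 16 reads (RR) in all, or 1.58, 4.23 and 1.53 rpm. CC had 1 of these 8 above the floor of 3 reads, Mock 6 and RR 3. Highest in Mock were 6 of 8, beside 37.9% of all 1149 miRNAs and 35.2% of those with a mean under 1 rpm. miR-382-5p had 12 reads in Mock, 2 in CC and 0 in RR, the same counts as miR-199a-5p. miR-379-5p had 3, 9 and 4 reads and miR-381-3p 3, 8 and 4. miR-134-5p, with 2, 2 and 5 reads, was highest in RR. These are values of 3 libraries with few reads each, and no cause for their pattern was tested.

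The endothelial strand miR-126-3p did not share this pattern: it was highest in RR, at 80.5 rpm. As deposited, its level in Mock, 65.8 rpm, lay between those of CC and RR. Under the 3 rescalings its Mock over CC ratio was 0.991, 0.959 and 0.858. miR-143-3p was lowest in Mock, at 4.42 rpm.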
